A study of Mus musculus with 9 samples.

Results

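Cytosolic ribosomal protein genes encode the proteins that, with ribosomal RNA, build the large and the small subunit of the cytoplasmic ribosome. They were chosen by name, as protein-coding genes whose mouse symbol is Rpl or Rps followed by a number with at most 1 letter a, x or l, by p0 to p2, or by a. The rule found 80 genes, 49 of the large and 31 of the small subunit, among 54838 identifiers in the count table, of which 26012 had at least 1 count. Of the 80 genes, 47 (29 large, 18 small) passed the filter on low counts and could be tested, 33 could not, and 2 of these, Rpl24 and Rpl3l, held 0 counts in every library.

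Transcripts of laser-captured mouse cells were counted in 9 libraries, 3 with the genotype label overlap, 3 labelled c-fos and 3 labelled mCHerry, spelled mCherry in the count table and below. The design text speaks of a CRD label, a His label and cells that carry both, without tying those names to the 3 groups, and the series title is about neurons of the basolateral amygdala (BLA) in visceral pain and itch. All 9 libraries share the label of tissue fixed with PFA and frozen, and the sources used here do not state the strain, age or treatment, the vectors or promoters behind the labels, or how many animals and cells a library holds. The labels also call the cells spermatocytes, and the protocol text speaks of testis in FFPE (paraffin) blocks, at odds with the frozen tissue and the title. Every one of 12 neuronal marker genes had counts, with summed levels of 2037 to 3897 CPM (counts in a library scaled to 1000000 in all). By contrast, 20 spermatocyte markers had summed levels of 115 to 593 CPM, where 17 had counts and Sycp1, Spo11 and Pgk2 were at 0. Glial markers were present too, with 1926 to 5997 CPM for 6 oligodendrocyte genes and 377 to 1025 CPM for 6 astrocyte genes. The libraries therefore cannot be taken as neurons alone. Replicate 3 of mCherry had the highest spermatocyte sum (593 CPM) and the lowest neuronal (2037 CPM) and oligodendrocyte (1926 CPM) sums. The lowest astrocyte sum (377 CPM) was that of overlap replicate 1. The part of these differences in the results below was not tested.

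Ribosomal proteins are made in matched amounts in growing cells, since a ribosome holds a single copy of most of them, and their mRNAs are among the most abundant of a typical cell. Most of these mRNAs begin with a terminal oligopyrimidine (TOP) tract, a C followed by pyrimidines, through which mTOR signalling sets how strongly they are translated. In neurons they are found in dendrites and axons as well as in the cell body, and phosphorylation of the ribosomal protein S6 is widely used as a mark of recent activity.

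The windows around the annotated transcription start are given for 6 genes on which the comparisons below turn. Rpl35 and Rps15a were leading genes of mCherry replicate 3. Rps2, Rps12 and Rpl27 had levels in overlap above those in mCherry. Rpl4 had levels in overlap below both other groups with TMM scaling (explained below), but not below mCherry on total counts. Each window runs from 30 bases before the start through 20 bases from it, 5′ to 3′ on the strand of the gene, from the RefSeq promoter table of build GRCm38.p6. Capitals mark the longest run of pyrimidines that lay near the start. That run spanned the annotated start in Rpl35 only. It ended before the start in Rps15a, Rpl27 and Rpl4 and began after it in Rps2 and Rps12, so capitals alone do not mark a TOP tract.
Rpl35, chr2:39005112-39005161, minus strand: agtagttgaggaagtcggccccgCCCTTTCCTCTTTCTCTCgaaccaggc
Rps15a, chr7:118116128-118116177, minus strand: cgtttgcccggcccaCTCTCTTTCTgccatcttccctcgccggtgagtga
Rps2, chr17:24720033-24720082, plus strand: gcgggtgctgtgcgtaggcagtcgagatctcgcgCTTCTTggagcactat
Rps12, chr10:23787190-23787239, minus strand: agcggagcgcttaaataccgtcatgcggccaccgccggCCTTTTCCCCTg
Rpl27, chr11:101442215-101442264, plus strand: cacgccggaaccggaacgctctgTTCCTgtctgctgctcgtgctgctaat
Rpl4, chr9:64173357-64173406, plus strand: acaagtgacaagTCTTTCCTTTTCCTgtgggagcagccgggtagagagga
The table matched 60 of the 80 genes by symbol, with 72 starts. A run of 5 or more pyrimidines within 10 bases of the start was present at 68.1% of these starts, against 44.9% of all 32851 starts in the table. The narrower pattern of a C at the annotated start followed by 4 pyrimidines was present at 18.1%, against 2.51% of all starts, and CTTTC on the sense strand from 10 bases before to 15 after the start was present at 20.8%, against 3.10%. CCGGAAG, searched on both strands over the whole window of 300 bases, was present at 36.1% of the starts, against 8.86% of all. TATAAA on the sense strand between 40 and 15 bases before the start was found at 0 of the 72 starts, against 1.99% of all. These matches describe the annotated starts and were not compared between the groups.

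Depth was low. Total counts were 90091, 225621 and 282974 in overlap, 109091, 298802 and 304536 in c-fos, and 259973, 429317 and 198865 in mCherry, and 3 counts, taken as the floor of detection, corresponded to between 6.99 and 33.3 CPM. The ribosomal protein genes held 7905 of 2199270 counts, or 0.359%, with a median of 73 counts per gene over the 9 libraries. The scaling factor of edgeR's TMM method was 0.650 in mCherry replicate 3 and between 0.969 and 1.17 in the other 8, so TMM scaling raises the levels of that library most. TMM-scaled levels were divided by this factor times the library's counts in genes that passed the filter. They therefore lie above the levels scaled to total counts in every library. The summed level of 3 pancreatic beta cell markers was 21290 CPM in overlap replicate 1 and 8694 CPM in mCherry replicate 3, against 287 to 1044 CPM in the other 7 libraries, and its part in the results below was not tested.

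**Figure D1:**
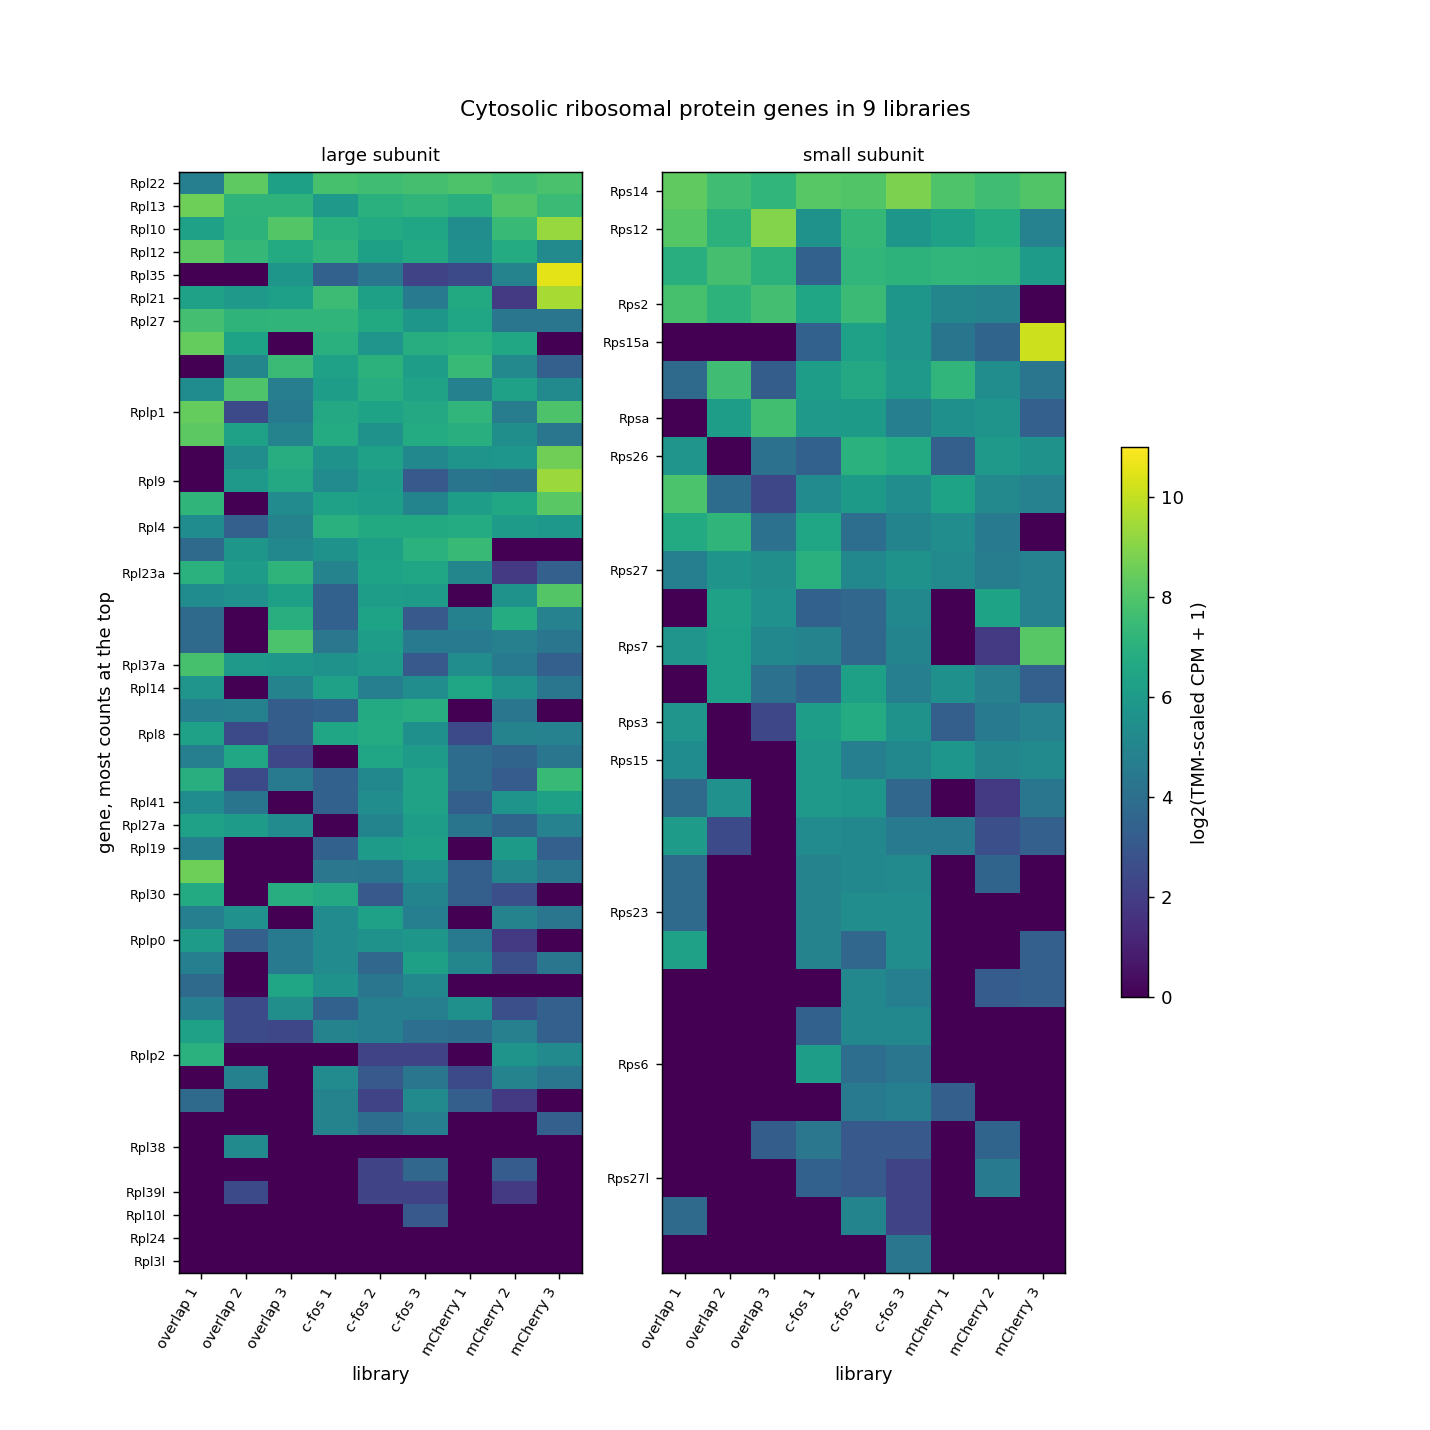
TMM-scaled level of 77 of the 80 ribosomal protein genes in each library, labelled where the text names them, on a log2(CPM + 1) colour scale, with large subunit genes on the left, small subunit genes on the right and the genes with most counts at the top. The c-fos columns are filled almost throughout, the overlap and mCherry columns have many genes at 0, and mCherry 3 has a few very bright genes.

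Summed over all 80 genes and scaled to total counts, ribosomal protein transcripts reached 5361, 3408 and 3544 CPM in overlap libraries 1 to 3, then 3767, 4217 and 3770 CPM in c-fos, then 2673, 2581 and 5169 CPM in mCherry. The c-fos libraries lay close together (3918 ± 259 CPM, SD, n = 3), whereas overlap (4105 ± 1090 CPM) and mCherry (3475 ± 1468 CPM) were each spread by 1 library, overlap replicate 1 and mCherry replicate 3. The ranges of all 3 groups overlapped. The log2 ratio of the group means was 0.17 for c-fos against mCherry, 0.24 for overlap against mCherry and 0.07 for overlap against c-fos. In bulk samples of this kind, fewer cells that use a gene and less RNA per cell cannot be told apart.

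The order of the groups in this sum rested on mCherry replicate 3, on overlap replicate 1 and on the scaling. With TMM scaling the sums were 6317, 3546 and 4251 CPM in overlap, 4001, 4711 and 4308 CPM in c-fos, and 3169, 2984 and 9700.3 CPM in mCherry, and the log2 ratios became -0.28 for c-fos against mCherry, -0.17 for overlap against mCherry and 0.12 for overlap against c-fos. Without mCherry replicate 3, mCherry averaged 2627 ± 65.4 CPM (SD, n = 2) of the total count or 3077 ± 131 CPM with TMM scaling. Every overlap and every c-fos library then lay above both remaining mCherry libraries on either scale. The TMM-scaled log2 ratio to mCherry was then 0.50 for c-fos and 0.61 for overlap. With overlap replicate 1 left out instead, the log2 ratio on total counts was 0.00080 for overlap against mCherry and -0.17 for overlap against c-fos.

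**Figure D2:**
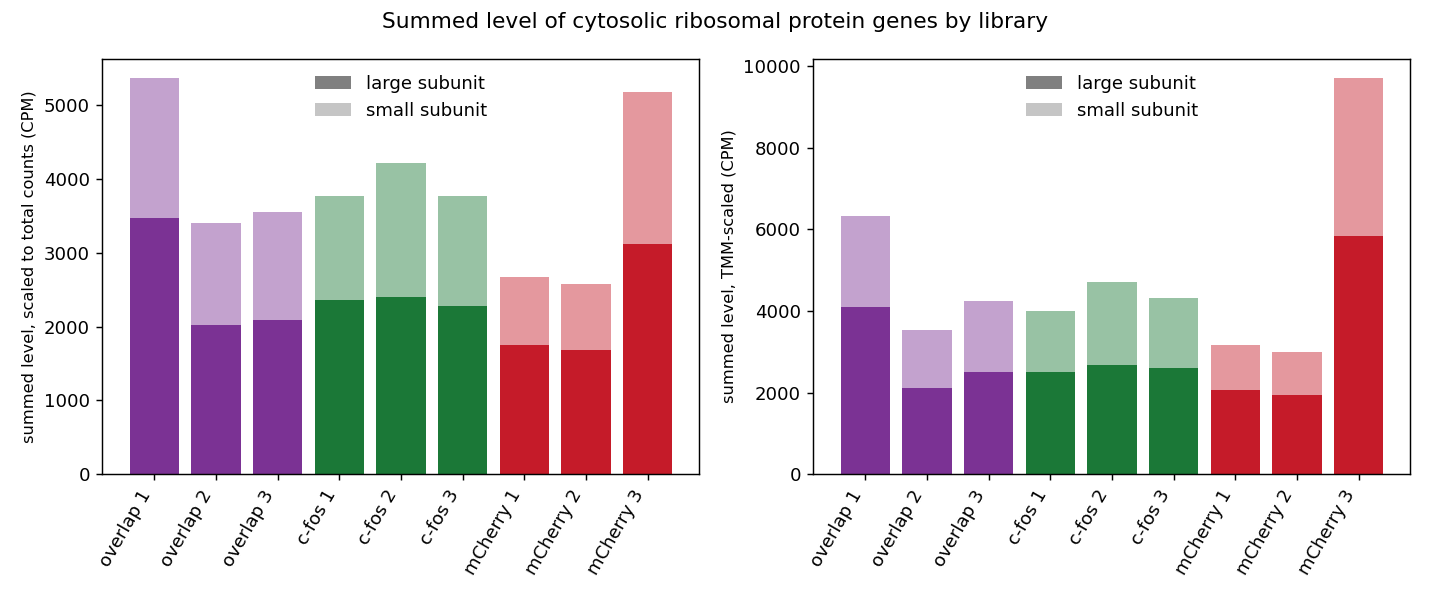
Summed level of the ribosomal protein genes in each library in CPM, scaled to total counts on the left and with TMM factors on the right, with the large subunit in full colour and the small subunit in pale colour above it. On the TMM scale mCherry 3 reaches 9700.3 CPM, above every other library, while mCherry 1 and mCherry 2 are the lowest on both scales.

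Large subunit genes held 64.8, 59.4 and 58.8% of the ribosomal protein counts in overlap, 62.8, 57.1 and 60.4% in c-fos, and 65.5, 65.3 and 60.2% in mCherry. Averages were 61.0 ± 3.29% in overlap, 60.1 ± 2.87% in c-fos and 63.7 ± 3.00% in mCherry (SD, n = 3 each). These ranges overlapped. Without mCherry replicate 3 the mCherry average was 65.4 ± 0.09% (n = 2), and both remaining mCherry libraries then lay above every overlap and every c-fos library.

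The excess of mCherry replicate 3 came from few genes. Its 6 leading genes included Rpl35 with 159 counts, Rps15a with 123, Rpl21 with 79, Rpl9 with 68 and Rpl10 with 66. Together the 6 leading genes held 66.3% of its ribosomal protein counts. The share of the 6 leading genes of each library, whichever they were, was 34.6, 37.3 and 41.2% in overlap, 27.7, 22.8 and 28.0% in c-fos, and 35.8 and 36.1% in mCherry replicates 1 and 2. With those 6 genes taken out of each library's sum, 3508, 2136 and 2085 CPM of the total count remained in overlap, 2722, 3256 and 2712 CPM in c-fos, and 1716, 1649 and 1740 CPM in mCherry. With TMM scaling the same remainders were 4133, 2223 and 2500.4 CPM in overlap, 2892, 3638 and 3099.6 CPM in c-fos, and 2034, 1907 and 3265 CPM in mCherry. Every overlap and c-fos library thus lay above every mCherry library on total counts, but not on the TMM scale, where mCherry replicate 3 lay inside the ranges of both other groups. Since each library lost its own leading genes, the remainder is smaller where counts are less even, and it is given as a description only.

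Breadth differed between the groups more plainly than the sum. At least 1 count was found for 57, 46 and 51 of the 80 genes in overlap, for 67, 75 and 77 in c-fos, and for 53, 65 and 55 in mCherry. After every library was thinned to the 90091 counts of the shallowest, the expected numbers were 57.0, 40.5 and 44.5 in overlap, 64.2, 66.7 and 67.6 in c-fos, and 45.5, 50.4 and 43.1 in mCherry. Thinned instead to an equal 411 ribosomal protein counts, they were 55.3, 42.1 and 46.4 in overlap, 67.0, 67.5 and 69.7 in c-fos, and 50.2, 56.8 and 41.1 in mCherry. Under all of these counts each c-fos library lay above every library of the other groups. The number of all genes detected at 90091 counts ran the same way, from 12371 to 13221 in c-fos against 9621 to 11972 in overlap and 9329 to 12195 in mCherry. Before thinning, the order did not hold in the 23 genes whose 3′ end shared no sequence of 50 bases with another gene. Of these, 16, 14 and 17 were detected in overlap, 17, 21 and 22 in c-fos, and 18, 20 and 16 in mCherry. It held in the 15 genes with up to 50% of that sequence shared and in the 42 with more.

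Of the 78 genes with a count, 32 (41.0%) were detected in all 3 overlap libraries, 67 (85.9%) in all 3 c-fos libraries and 45 (57.7%) in all 3 mCherry libraries, against 23.4, 34.3 and 32.6% of the 26012 genes with a count. Those at 0 in a whole group numbered 10 in overlap, 1 in c-fos and 9 in mCherry, against 28.6, 18.6 and 27.2% of all genes. The gene at 0 in c-fos was Rpl38, of the large subunit, whose 8 counts were all in overlap replicate 2. Rps6, whose protein is the target of S6 kinase named above, had 7, 4 and 5 counts in c-fos libraries 1 to 3 and 0 in each overlap and mCherry library. That is at least 5.83-fold higher in c-fos than in mCherry and at least 4.43-fold lower in overlap than in c-fos, with 3 counts per summed group as the floor. Rps23, which takes part in decoding, had 3, 11 and 11 counts in c-fos against 0 in each mCherry library, at least 9.12-fold higher, and 1, 0 and 0 counts in overlap. These genes are named after their values were seen, and all of them stood below the filter for testing.

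**Figure D3:**
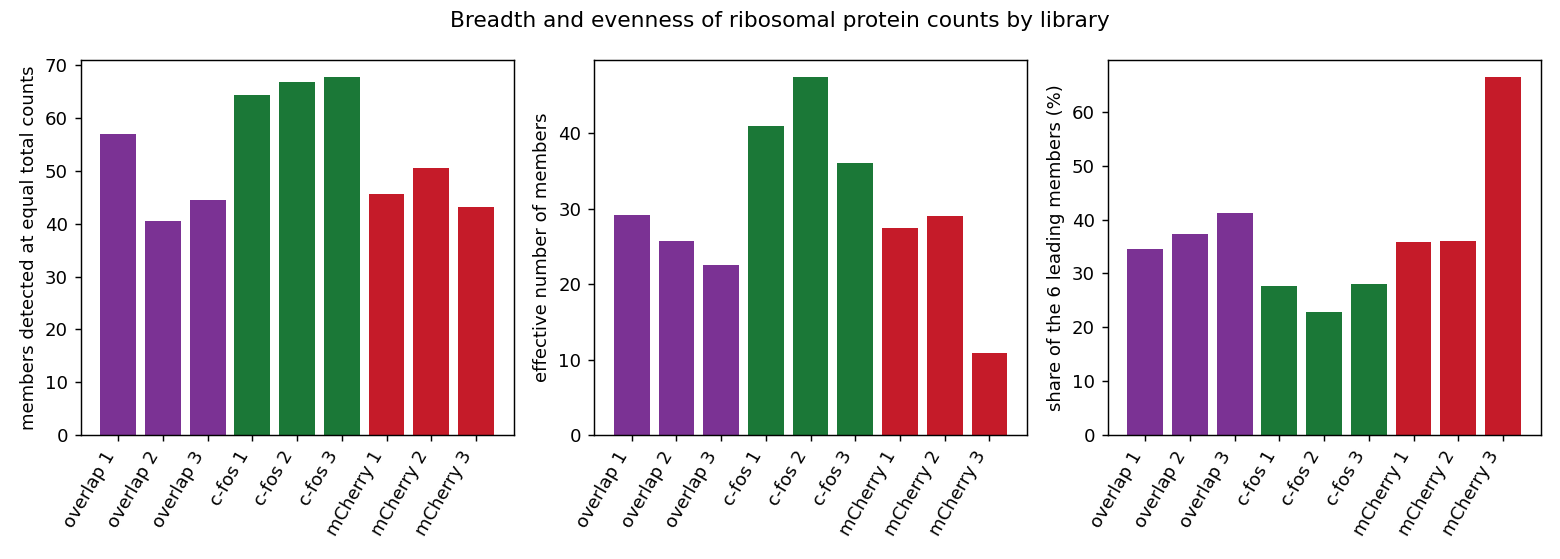
Bars for each library give the number of ribosomal protein genes detected after thinning to equal total counts (left), the effective number of genes among which the ribosomal protein counts were spread (middle) and the percentage held by the 6 leading genes (right). The 3 c-fos libraries have the most genes detected, the highest effective numbers and the lowest shares, and mCherry 3 has the lowest effective number, 10.9.

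How evenly the counts were spread was expressed as an effective number of genes, the inverse of the chance that 2 counts drawn from a library come from the same gene. It was 29.2, 25.7 and 22.6 in overlap, 40.9, 47.4 and 36.1 in c-fos, and 27.5, 29.0 and 10.9 in mCherry. Each c-fos library was again above all others. Averages were 25.8 ± 3.27 in overlap, 41.5 ± 5.66 in c-fos and 22.5 ± 10.04 in mCherry (SD, n = 3 each), or 28.2 ± 1.03 in mCherry without replicate 3 (n = 2).

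Genes varied among the 9 libraries by more than counting error. A dispersion index, the variance over libraries relative to Poisson counting at each library's total, had a median of 9.59 over the 52 ribosomal protein genes with at least 50 counts, against 9.10 over all 9560 genes with that many. The least variable were Rps15 at 2.87, Rps27 at 3.61, Rpl14 at 3.99 and Rpl41 at 4.17. Among the 4 most variable were Rpl35 at 161, Rps15a at 108 and Rpl21 at 37.5. Each of these 3 had more counts in mCherry replicate 3 than in any other library: 83.2% of all Rpl35 counts, 73.7% of those of Rps15a and 43.2% of those of Rpl21. In all, 10 ribosomal protein genes had 50% or more of their counts in 1 library.

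The 6 genes with most counts included Rps14 with 475, Rpl22 with 368, Rpl13 with 313, Rpl10 with 303 and Rps12 with 291. Rps14, whose loss of a copy underlies the anaemia of the human 5q deletion syndrome, had TMM-scaled levels of 314, 198 and 148 CPM in overlap, 282, 254 and 458 CPM in c-fos, and 251, 194 and 255 CPM in mCherry. It had the most counts of any member in c-fos libraries 1 to 3 and in mCherry 1, and its groups overlapped on the TMM scale. Between c-fos and mCherry that overlap was 254 CPM in c-fos replicate 2 against 255 CPM in mCherry replicate 3, and scaled to total counts, or without mCherry replicate 3, every c-fos library lay above every mCherry library. Rpl22, a large subunit protein that mice can do without in most tissues, had 26.2, 304 and 76.3 CPM in overlap, 224, 194 and 218 CPM in c-fos, and 242, 194 and 226 CPM in mCherry. Its c-fos and mCherry levels were steady (212 ± 15.6 and 221 ± 24.4 CPM, SD, n = 3 each) while overlap was not (136 ± 148 CPM). Rpl13, of the large subunit, had 379, 143 and 139.9 CPM in overlap, 58.4, 127 and 146 CPM in c-fos, and 119, 259 and 179 CPM in mCherry, with overlapping groups.

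For c-fos against mCherry, 0 ribosomal protein genes passed an adjusted p of 0.05 in edgeR's quasi-likelihood test, as did 0 of all 7959 genes tested (0.00%), and DESeq2 called 0 of them as well, beside 0.0251% of all genes higher and 0.0126% lower. With no filter on low counts edgeR called 0 of the 78 genes with a count higher and 1 lower, Rpl35, beside 0.0154% and 0.957% of all genes. It called 0 without mCherry replicate 3 in either direction, beside 0.00983% and 0.00% of all genes. At an unadjusted p under 0.05, 1 was higher in c-fos, Rps2, and 0 were lower, against 3.30% and 4.64% of all genes tested. The median log2 fold change over the 47 tested genes was 0.41, with 28 positive (59.6%), beside -0.01 and 49.7% over all genes tested. The groups did not overlap for 5 genes higher in c-fos, among them Rpl8, Rplp0, Rps2 and Rps3 (10.6% of 47), and for 0 lower, beside 9.02% and 6.82% of all genes tested. On this scale and with all libraries, the share of genes with higher, non-overlapping c-fos levels was thus near the background. Scaled to total counts it was 7 of 47 higher (14.9%) and 0 lower, beside 10.5% and 3.74% of all genes. With TMM scaling and without mCherry replicate 3 it was 9 of 47 higher (19.1%) and 0 lower, beside 12.4% and 12.8% of all genes.

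Rps2, a small subunit protein at the entry of the mRNA channel, had 87.6, 179 and 56.3 CPM in c-fos against 31.9, 29.6 and 0 CPM in mCherry, a log2 fold change of 2.25 ± 0.95 (SE) with an adjusted p of 0.572 in edgeR. Every c-fos library was above every mCherry library, but the gene did not pass the test. Rpl23a, at the mouth of the tunnel through which the new chain leaves the ribosome, had 29.2, 82.3 and 90.1 CPM in c-fos against 31.9, 2.69 and 9.44 CPM in mCherry (log2 fold change 2.18 ± 1.13). Rpl30, of the large subunit, had 97.4, 7.48 and 30.02 CPM in c-fos against 9.12, 5.39 and 0 CPM in mCherry (2.87 ± 1.67).

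Others of the 8 genes with the smallest p had lower fitted levels in c-fos, among them Rps15a, Rpl9 and Rpl10, which are also leading genes of mCherry replicate 3. Rps15a, of the small subunit, had 9.74, 78.5 and 52.5 CPM in c-fos against 18.2, 10.8 and 1161 CPM in mCherry (log2 fold change -2.98 ± 1.42). Rpl9 of the large subunit had 38.9, 67.3 and 7.51 CPM in c-fos against 18.2, 16.2 and 642 CPM in mCherry (-2.52 ± 1.38). Without mCherry replicate 3 the sign of both turned, to log2 fold changes of 1.66 for Rps15a and 1.08 for Rpl9. Rpl10, a protein added late in the making of the large subunit, had 127, 105 and 86.3 CPM in c-fos against 41.0, 175 and 623 CPM in mCherry (-1.39 ± 0.88). The median over tested genes was 0.55 without mCherry replicate 3 (38 of 55 positive, 69.1%, beside 50.5% of all genes tested) and 0.10 without c-fos replicate 2.

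For overlap against mCherry, 0 ribosomal protein genes passed the adjusted p in edgeR, where 2 of 7959 genes did (0.0251%, both lower in overlap). At an unadjusted p under 0.05, 5 were higher in overlap, Rpl23a, Rpl27, Rpl30, Rps12 and Rps2, and 1 was lower, Rps15a, beside 6.31% and 7.69% of all genes. DESeq2 called 1 gene, Rps2, higher in overlap (log2 fold change 3.34, adjusted p = 0.0213), where it called 1.72% of all genes higher and 0.641% lower. With no filter on low counts edgeR called 0 ribosomal protein genes higher and 2 lower, Rpl35 and Rps15a, beside 0.211% and 1.11% of all genes, and without mCherry replicate 3 it called 0, beside 0.0983% of all genes in each direction. The median log2 fold change was 0.19, with 26 of 47 positive (55.3%), beside -0.05 and 48.7% over all genes. The median was 0.59 without mCherry replicate 3, with 38 of 55 positive beside 51.9% of all genes, and -0.21 without overlap replicate 1. The groups did not overlap for 6 genes higher in overlap (12.8% of 47) and 2 lower (4.26%), beside 6.37% and 11.0% of all genes. The 6 were Rpl23a, Rpl27, Rpl27a, Rpl37a, Rps12 and Rps2, and the 2 were Rpl4 and Rps15a, a larger share than the background among the higher and a smaller one among the lower. These numbers were 7 (14.9%) and 2 (4.26%) without mCherry replicate 3, beside 8.71% and 16.6% of all genes. Leaving out mCherry replicate 3 and overlap replicate 1 together changed them to 10 (21.3%) and 8 (17.0%), beside 20.3% and 23.2% of all genes. The share of higher genes was then near the background.

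Rps2 had 222, 138 and 208 CPM in overlap against 31.9, 29.6 and 0 CPM in mCherry, a log2 fold change of 3.05 ± 0.97 (SE) with an adjusted p of 0.240 in edgeR. Its lowest overlap library was thus above 4 times the highest mCherry library. Sequence at the 3′ end of Rps2 is shared with 51 pseudogenes, and how reads were assigned among such copies is not stated. One pseudogene named after it, Rps2-ps12, had 0 CPM in each overlap library, 87.6, 112 and 0 CPM in c-fos, and 27.4, 64.6 and 1727 CPM in mCherry. The levels of Rps2 in all 3 groups carry this uncertainty. Rpl23a had 131, 64.6 and 139.9 CPM in overlap against 31.9, 2.69 and 9.44 CPM in mCherry (2.88 ± 1.15). Rps12, a small subunit protein that in Drosophila is needed for competition between cells with unequal ribosome gene dose, had 275, 134 and 496 CPM in overlap against 77.5, 110.4 and 28.3 CPM in mCherry (2.02 ± 0.83). Rpl27, of the large subunit, had 209, 143 and 144 CPM in overlap against 91.2, 18.9 and 18.9 CPM in mCherry (1.90 ± 0.89).

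All overlap libraries were above all mCherry libraries in each of these 4 genes. That did not hold for Rpl30, with 105, 0 and 114 CPM in overlap against 9.12, 5.39 and 0 CPM in mCherry (log2 fold change 3.60 ± 1.69), since overlap replicate 2 held 0. Rpl12, which lies at the base of the ribosomal stalk, had 301, 161 and 106 CPM in overlap against 45.6, 108 and 37.7 CPM in mCherry (1.51 ± 0.80), with 1 mCherry library inside the overlap range. Rpl37a, of the large subunit, had 222, 59.95 and 55.1 CPM in overlap against 41.0, 21.5 and 9.44 CPM in mCherry (2.12 ± 1.18). Rps15a had 0 counts in all 3 overlap libraries and 4, 4 and 123 counts in mCherry, at least 33.2-fold lower in overlap by the same floor. Most of that bound is the single library mCherry replicate 3. Placed at its bound, Rps15a stays on the same side of the median above.

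**Figure D4:**
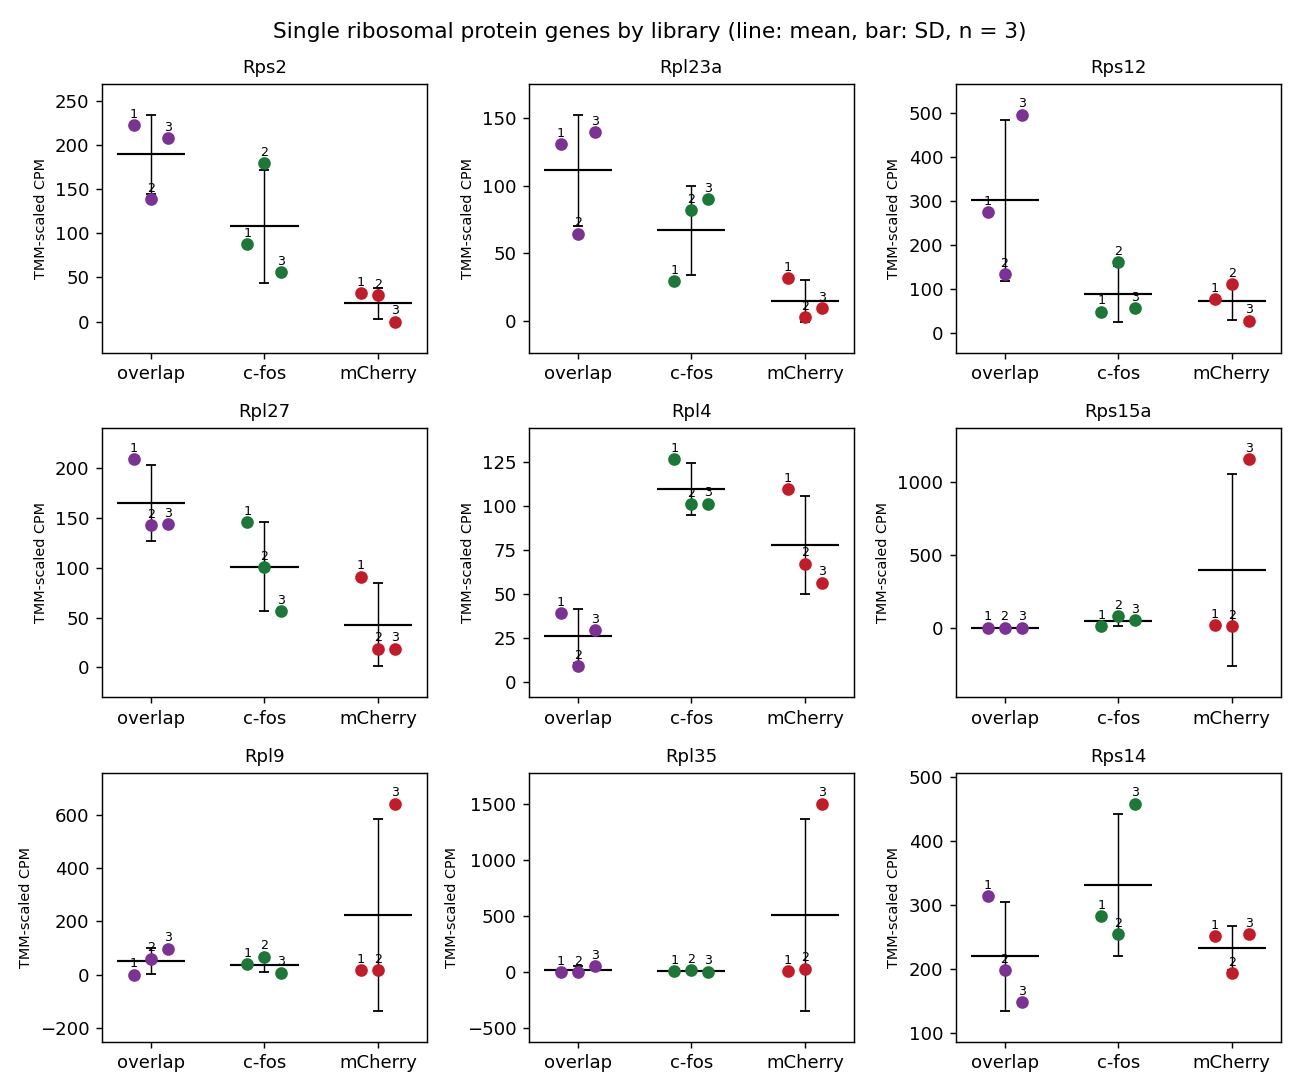
TMM-scaled CPM of 9 ribosomal protein genes, with 1 point per library marked by its replicate number, the group mean as a line and the SD as a bar (n = 3), which reaches below 0 where 1 library dominates. Rps2, Rpl23a, Rps12 and Rpl27 are higher in every overlap than in every mCherry library, Rpl4 is lower in every overlap library than in all others, and Rps15a, Rpl9 and Rpl35 are high in mCherry 3.

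For overlap against c-fos, 0 ribosomal protein genes passed the adjusted p in edgeR, as did 0 of all genes tested (0.00%), and DESeq2 called 0 of them, beside 0.0628% of all genes higher and 0.0126% lower. With no filter on low counts edgeR called 0 higher and 1 lower, Rps15a, beside 0.115% and 0.0423% of all genes, and without mCherry replicate 3 it called 0, beside 0.0688% and 0.0197%. At an unadjusted p under 0.05, 0 were higher and 2 lower in overlap, Rpl4 and Rps15a, beside 2.17% and 2.93% of all genes. The median log2 fold change was 0.13, with 27 of 47 positive (57.4%), beside 0.02 and 50.8% over all genes. The groups did not overlap for 1 gene higher in overlap, Rps7, and 2 lower, Rpl4 and Rps15a (2.13 and 4.26% of 47), beside 3.96% and 8.61% of all genes, so both shares were below the background with all libraries. Without overlap replicate 1 the numbers were 4 (8.51%) and 10 (21.3%), beside 11.9% and 13.5% of all genes, so that the share of lower genes was then above the background.

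Rpl4, which has a loop that lines the exit tunnel, had 39.2, 9.22 and 29.7 CPM in overlap against 127, 101 and 101 CPM in c-fos, a log2 fold change of -2.11 ± 0.99 (SE) with an adjusted p of 0.944 in edgeR. In mCherry it had 109, 67.3 and 56.6 CPM, also above every overlap library on this TMM scale. Scaled to total counts, the overlap and mCherry levels of Rpl4 overlapped, and they did not when mCherry replicate 3 was left out. Rps15a, at 0 in overlap, had 1, 21 and 14 counts in c-fos, at least 9.98-fold lower in overlap. Rps12 had 275, 134 and 496 CPM in overlap against 48.7, 161 and 56.3 CPM in c-fos (1.74 ± 0.82), with c-fos replicate 2 inside the overlap range.

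Rps3, which with Rps2 borders the mRNA entry, had 52.3, 0 and 4.24 CPM in overlap against 68.2, 108 and 48.8 CPM in c-fos (log2 fold change -2.24 ± 1.51). Rps26, near the exit of the mRNA channel, had 52.3, 0 and 17.0 CPM in overlap against 9.74, 131 and 105 CPM in c-fos (-2.01 ± 1.43). Rpl19, of the large subunit, had 26.2, 0 and 0 CPM in overlap against 9.74, 67.3 and 75.1 CPM in c-fos (-2.98 ± 1.97). In all 3 genes the groups overlapped through a single library. Rpl37a (1.51 ± 1.16) and Rpl13 (0.95 ± 0.74) completed the 8 genes with the smallest p, with higher fitted levels in overlap and overlapping groups.

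**Figure D5:**
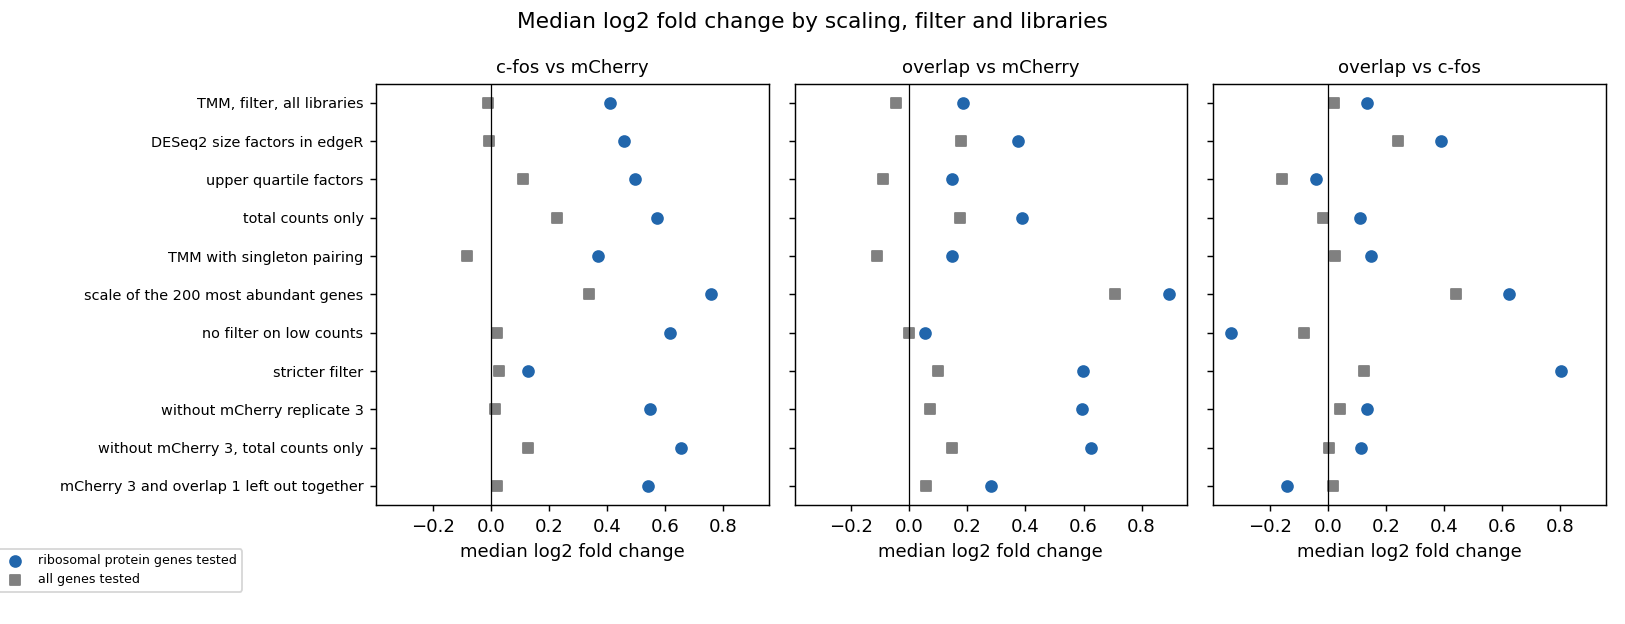
Median log2 fold change over the tested ribosomal protein genes (circles) and over all genes tested (squares) for each comparison, by scaling and filter on low counts with all 9 libraries, and without mCherry 3 or without mCherry 3 and overlap 1. In the settings drawn, for c-fos against mCherry the circles run from 0.13 to 0.76 and stay to the right of the squares, and for overlap against c-fos they run from -0.33 to 0.80.

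The median depended on the scale that was chosen, as did the median of all genes. Scaled to total counts, with no further factor, it was 0.57 for c-fos against mCherry (beside 0.23 for all genes), 0.39 for overlap against mCherry (beside 0.17) and 0.11 for overlap against c-fos (beside -0.02). With the scale taken from the 200 most abundant genes it was 0.76, 0.90 and 0.62 in that order, beside 0.34, 0.71 and 0.44 for all genes. The distance of the ribosomal protein median from that of all genes was 0.42, 0.23 and 0.11 with TMM scaling and 0.42, 0.19 and 0.18 on the scale of the abundant genes. A change of scale moves all genes by nearly the same amount, so this distance could hardly change with it. It did change with the filter on low counts, to 0.10, 0.50 and 0.68 with a stricter filter and 0.60, 0.05 and -0.25 with none. Without mCherry replicate 3 and on total counts alone, the medians were 0.66, 0.62 and 0.11. With 15 genes left by a stricter filter they were 0.13, 0.60 and 0.80.

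The ribosomal stalk, the flexible arm that recruits elongation factors, is built from Rplp0, Rplp1 and Rplp2. Rplp0, its base, had 65.4, 9.22 and 21.2 CPM in overlap, 38.9, 48.6 and 56.3 CPM in c-fos, and 22.8, 2.69 and 0 CPM in mCherry, with no overlap between c-fos and mCherry. Rplp1 had 340.0, 4.61 and 21.2 CPM in overlap, 97.4, 82.3 and 97.6 CPM in c-fos, and 150.5, 24.2 and 245 CPM in mCherry. Its c-fos libraries lay close together inside the range of the other groups. Rplp2 had 35 counts in all, too few to test, with 131, 0 and 0 CPM in overlap, 0, 3.74 and 3.75 CPM in c-fos, and 0, 51.2 and 37.7 CPM in mCherry. The 3 stalk genes therefore did not follow a common order of groups. Rpsa, a small subunit protein also known as a precursor of the laminin receptor, had 0, 69.2 and 203 CPM in overlap, 58.4, 63.6 and 26.3 CPM in c-fos, and 45.6, 51.2 and 9.44 CPM in mCherry, and its groups overlapped.

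Paralogs within the naming rule had few counts. Rpl10l, which replaces Rpl10 in male meiosis in mice, had 2 counts, both in c-fos replicate 3, Rpl39l, another testis paralog, had 4 counts in 4 libraries, and Rpl3l, the paralog of striated muscle, had 0. Rps27l had 12 counts, of which 8 were in mCherry replicate 2. Paralogs outside the naming rule were also low, with 42 counts for Rpl7l1, 24 for Rpl36al, 2 for Rpl22l1 and 0 for Rps4l. Genes for ribosomal proteins that carry other names included Fau, with 107 counts of which 51 were in overlap replicate 3. Fau, which encodes a ubiquitin-like protein fused to a small subunit protein, had 26.2, 46.1 and 216 CPM in overlap, 29.2, 56.1 and 18.8 CPM in c-fos, and 63.8, 16.2 and 9.44 CPM in mCherry.

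Ribosomal protein genes have many processed pseudogenes, so the sequence behind a 3′ count is often not theirs alone. Within the last 300 bases of the principal transcript, 57 of the 80 genes (71.3%) shared at least 1 word of 50 bases with another annotated gene, and for 54 of them that other gene was a pseudogene. Among the 6423 protein-coding genes tested, 6.60% shared such a word. Over the 80 genes the shared percentage and the total count had a Spearman rho of 0.09, a description over genes that are counted in the same libraries. In the annotation, 33 of the 80 genes also overlapped another gene on the same strand and 21 overlapped one on the other strand. The sources used here do not state how the authors' counting treated such reads, so levels of single genes with a near copy are uncertain.

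Grouped by this sharing, the 23 genes with no shared word had summed levels of 1776, 878 and 986 CPM of the total count in overlap, 1155, 1262 and 972 CPM in c-fos, and 965, 722 and 749 CPM in mCherry. On this scale mCherry replicate 3 lay between mCherry replicates 1 and 2, and every c-fos and overlap library but overlap replicate 2 lay above all mCherry libraries. With TMM scaling the same genes had 2093, 913 and 1182 CPM in overlap, 1227, 1409 and 1111 CPM in c-fos, and 1145, 835 and 1406 CPM in mCherry, so that mCherry replicate 3 was the highest of its group and inside the ranges of both others. The 42 genes with over 50% of their words shared had 2542, 1764 and 2248 CPM in overlap, 1742, 2229 and 1878 CPM in c-fos, and 1189, 1353 and 3872 CPM in mCherry. Scaled to total counts, the excess of mCherry replicate 3 was thus in the genes with much shared sequence. Of its 6 leading genes, 5 shared over 50% of their words (Rpl35, Rps15a, Rpl9 and Rpl10 among them) and Rpl21 shared none. Rps2, Rpl23a, Rps12 and Rpl27, named above for overlap, also shared over 50%, while Rpl4 shared none.

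Other genes of translation, taken from lists by function, gave 0 calls in edgeR in any comparison with the filter on low counts and all 9 libraries. With no filter it called Nop58, a gene of ribosome biogenesis, lower in c-fos than in mCherry (adjusted p = 0.0190), and their unadjusted calls and the counts by sign are set beside those of the ribosomal proteins. Of 6 tested elongation factor genes, 4 were positive and 2 negative for c-fos against mCherry, 3 and 3 for overlap against mCherry, and 1 and 5 for overlap against c-fos. Eef1a1, which brings aminoacyl-tRNA to the ribosome and whose mRNA carries a TOP tract, averaged 239 ± 23.8 CPM in c-fos, against 40.0 ± 5.05 CPM in mCherry (SD, n = 3 each), with a log2 fold change of 2.55 ± 0.99 and an adjusted p of 0.567 in edgeR. In overlap it averaged 23.1 ± 26.7 CPM, a log2 fold change of -3.58 ± 1.08 against c-fos with an adjusted p of 0.808. Each c-fos library had at least 214 CPM of Eef1a1 and no other library had over 52.3 CPM. Of 19 tested genes for ribosome biogenesis, 5 were positive and 14 negative for c-fos against mCherry, and 3 and 16 for overlap against mCherry. For overlap against c-fos they were 9 and 10. In the same order of comparisons, 21 tested initiation factor genes gave 7 and 14, 6 and 15, and 6 and 15. The 8 tested genes listed for other TOP mRNAs, Eef1a1 among them, gave 5 and 3, 4 and 4, and 3 and 5. The 8 for growth control of translation gave 5 and 3, 4 and 4, and 6 and 2. Over all genes tested, 49.7, 48.7 and 50.8% were positive. Of 28 tested genes for mitochondrial ribosomal proteins, 13 were positive and 15 negative for c-fos against mCherry, 12 and 16 for overlap against mCherry, and 16 and 12 for overlap against c-fos.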

How the data were processed

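As deposited, the values are raw whole-number counts for each Ensembl identifier in each library, with no normalization. The submitters' processing notes name mm9 as the build and list featureCounts, UMI-tools, STAR and Trim Galore. Their versions, order and settings, any collapsing of molecular identifiers and any use of strand were not given in the sources used here. Per the labels' protocols, cells were taken by laser capture and libraries made with Smart-3SEQ, which reads the 3′ ends of polyadenylated RNA, so floors cover counting error only. Symbols and gene types came from a table of names and the GENCODE M21 annotation of GRCm38, which matched 54723 of 54838 identifiers. Since that build is not mm9, no coordinates other than those of the RefSeq promoter table (GRCm38.p6) are given.

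All 9 libraries entered 1 fit of the counts in edgeR 4.0.16 (R 4.3.3) with TMM scaling, filterByExpr at a minimum count of 10, the quasi-likelihood test and Benjamini-Hochberg adjustment over the 7959 genes tested. The common dispersion was 0.735. SEs of log2 fold changes were derived from the F statistic. DESeq2 1.42.0 was run as an alternative. All tests were two-sided. Sums over the genes, detection and evenness were described per library with no test, and with 3 libraries against 3 an exact permutation test could not have given a p under 0.1. The labels tie no library to an animal, so each p-value reflects the spread between libraries alone, which may be technical.

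The members and all lists were chosen with earlier results of these data known. For each comparison the text names the 8 tested members with the smallest unadjusted p. Over the series it names the 6 members with most counts, the 4 most and 4 least variable, the stalk genes, Rpsa, paralogs, members at 0, and Fau. Values of some genes that this rule names are not reported here. From each other list it takes up to 3 tested genes with an unadjusted p under 0.05. Alternatives changed the scaling, the filter, the libraries, the members summed and the tool. Library sums without the 6 leading genes, without genes of shared 3′ sequence, on the TMM scale, and the counts of non-overlapping groups without libraries were added after seeing the data.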

Additional observations from a re-analysis of the deposited data

How the results depend on the processing

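Depth limits what can be said of single genes: 33 of 80 members were too low to test, and the common dispersion was 0.735. The number of members past the adjusted p in edgeR was 0 in every comparison and stayed at 0 in each refit without 1 library. With no filter on low counts it was 1 for c-fos against mCherry (Rpl35, lower), 2 for overlap against mCherry (Rpl35 and Rps15a, lower) and 1 for overlap against c-fos (Rps15a, lower), and DESeq2 called 1 for overlap against mCherry (Rps2). Rpl35 and Rps15a had most of their counts in mCherry replicate 3.

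The median log2 fold change of c-fos against mCherry (0.41) was 0.76 on the scale of the 200 most abundant genes, 0.13 with a stricter filter (10 counts in 6 libraries), 0.66 without mCherry replicate 3 on total counts, and 0.10 to 0.57 when 1 library was left out. That of overlap against mCherry (0.19) was 0.90, 0.60 and 0.62 in the same settings and -0.21 to 0.61 with 1 library left out. That of overlap against c-fos (0.13) was 0.62 on the abundant-gene scale, -0.33 with no filter and 0.80 with the stricter filter. The replicate block, which treats libraries of the same number as paired, gave -0.50 for this last median, so its sign depends on that choice. The labels do not state whether libraries of the same number belong together. Deviations of same-numbered libraries had correlations between -0.03 and 0.04, but at this depth and spread such values cannot decide it. The block changed no count of calls.

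The log2 ratio of summed levels of c-fos against mCherry (0.17) was -0.37 with DESeq2 size factors, -0.44 with TMM with singleton pairing, -0.28 with TMM and 0.77 without the 6 leading members, and ranged from -0.0012 to 0.58 when 1 library was left out. That of overlap against mCherry (0.24) was -0.31 with singleton pairing and 0.00080 to 0.64 with 1 library left out. That of overlap against c-fos (0.07) was 0.37 with DESeq2 size factors, 0.55 on the abundant-gene scale and -0.17 to 0.18 with 1 library left out. The mean number of members detected was 66.2 in c-fos and 46.3 in mCherry after thinning, against 73.0 and 57.7 before.

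Signs of 5 named genes turned when mCherry replicate 3 was left out. For c-fos against mCherry, without mCherry replicate 3, then also without overlap replicate 1, then without mCherry replicate 3 on total counts, the log2 fold changes were 1.66, 1.66 and 1.75 for Rps15a, 1.08, 1.07 and 1.203 for Rpl9, and 0.47, 0.46 and 0.60 for Rps2-ps12. Rpl10 turned only in the last setting, to 0.020. For overlap against mCherry, Mrpl43 was 0.61, 0.94 and 0.73. With 1 library left out, the log2 fold changes ranged from -3.55 to 1.66 for Rps15a, -3.35 to 1.08 for Rpl9, -3.89 to 0.47 for Rps2-ps12 and -3.90 to 0.61 for Mrpl43. The other settings of named genes kept their sign, 929 of 942 in all.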

Other observations

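Genes of other translation lists with an unadjusted p under 0.05 were examined for the same comparisons, and none of them passed the adjusted p in edgeR with the filter on low counts and all 9 libraries. Among ribosome biogenesis genes, Nop58, a core protein of box C/D snoRNPs, averaged 84.2 ± 37.7 CPM in c-fos, against 660.4 ± 823 CPM in mCherry, with a log2 fold change of -2.95 ± 0.95 and an adjusted p of 0.567 in edgeR, or 0.0190 with no filter on low counts. Against the same mCherry libraries, overlap averaged 164 ± 127 CPM (-2.03 ± 0.92). Nop58 stood at 283 and 94.3 CPM in mCherry replicates 1 and 2 and at 1604 CPM in replicate 3, and without that library its log2 fold change was -1.18 for c-fos and -0.25 for overlap. Wdr12, which acts in large subunit assembly, averaged 134 ± 81.9 CPM in overlap, against 417 ± 61.0 CPM in mCherry (-1.60 ± 0.66). Npm1, the nucleolar protein nucleophosmin, averaged 10.01 ± 8.88 CPM in overlap, against 167 ± 248 CPM in mCherry (-4.00 ± 1.57, or -1.26 without mCherry replicate 3). Among initiation factors, Eif3a averaged 100.1 ± 31.4 CPM in c-fos, against 371 ± 102 CPM in mCherry (-1.87 ± 0.76). Eif2b5 averaged 83.4 ± 48.8 CPM in c-fos, against 305 ± 218 CPM in mCherry (-1.82 ± 0.80), with 51.5 ± 16.1 CPM in overlap (-2.57 ± 0.84 against mCherry). Without mCherry replicate 3 the log2 fold changes of Eif2b5 were -1.10 for c-fos and -1.84 for overlap. Eif4g2 averaged 40.0 ± 39.6 CPM in overlap, against 199.98 ± 182 CPM in mCherry (-2.23 ± 1.01, or -1.26 without mCherry replicate 3). Tsc2, a brake on mTOR signalling, averaged 332 ± 163 CPM in overlap, against 732 ± 202 CPM in mCherry (-1.12 ± 0.51).

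Mitochondrial ribosomal protein genes included Mrps14, with 20.96 ± 14.9 CPM in c-fos, against 271 ± 289.7 CPM in mCherry (log2 fold change -3.69 ± 1.08, or -2.39 without mCherry replicate 3), and 124 ± 85.4 CPM in overlap (2.59 ± 1.05 against c-fos). Mrpl17 averaged 73.6 ± 66.6 CPM in c-fos, against 0.898 ± 1.56 CPM in mCherry, and 76.0 ± 97.9 CPM in overlap. Mrpl23 averaged 263 ± 223 CPM in overlap, against 46.0 ± 11.6 CPM in mCherry (2.49 ± 0.83, or 1.42 without overlap replicate 3), and DESeq2 called it at an adjusted p of 0.0399. Mrpl43 averaged 38.8 ± 31.4 CPM in overlap, against 341 ± 546 CPM in mCherry (-3.02 ± 1.23, or 0.61 without mCherry replicate 3).

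Of 300 ribosomal pseudogenes, 159 had counts and 28 could be tested, and their summed levels were 3009 to 4196 CPM of the total count in overlap, 1914 to 2924 CPM in c-fos and 2019 to 3173 CPM in mCherry. Every overlap library thus stood above every c-fos library, and mCherry replicate 3 alone of its group reached the overlap range. Rps2-ps12 had 0, 0 and 0 CPM in overlap, 87.6, 112 and 0 CPM in c-fos, and 27.4, 64.6 and 1727 CPM in mCherry, so mCherry replicate 3 stood apart here, whereas it held 0 counts of Rps2 itself. In edgeR with no filter on low counts, Rps2-ps12 passed as lower in c-fos than in mCherry (adjusted p = 0.0342), lower in overlap than in mCherry (4.28e-09) and lower in overlap than in c-fos (0.00213), and for overlap against mCherry also when mCherry replicate 1 was left out (0.0436). Without the filter Rpsa-ps10 (adjusted p = 0.000635) and Rpl19-ps12 (0.0117) also passed as lower in c-fos than in mCherry in edgeR, with 93 of 94 and 53 of 56 mCherry counts in replicate 3, and both are named after their values were seen. Rps19-ps9 had 157, 0 and 225 CPM in overlap, 0 in each c-fos library, and 36.5, 94.3 and 37.7 CPM in mCherry. Rpl27a-ps1 averaged 391 ± 506 CPM in overlap, 35.0 ± 32.3 CPM in c-fos, against 33.4 ± 57.9 CPM in mCherry, and Rpl31-ps13 averaged 20.9 ± 20.8 CPM in overlap, against 157 ± 69.9 CPM in mCherry (-2.74 ± 1.09).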
